A study of Mus musculus with 6 samples.

Results

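The genes described here are the 46 genes whose symbols start with Nduf, of 15954 genes measured in microglia isolated from the mouse brain. Membership was set by symbol alone, but the family was chosen with earlier results of these data known. Of them, 38 carry the names of subunits of respiratory complex I (Ndufa, Ndufb, Ndufc, Ndufs and Ndufv) and 8 are complex I assembly factors (Ndufaf). The question was whether their transcripts differ when LACTB, a serine enzyme of mitochondria, lacks catalytic activity. The series compared 3 LACTB WT mice with 3 LACTB ED (enzymatically dead) mice, which carry the S162I substitution of the catalytic serine on both alleles. Polyadenylated RNA gave 1 library per mouse, named here WT1 to WT3 and ED1 to ED3 after the mouse number in the labels. Mice were 3 months old, and the knock-in of exon 3 of Lactb was made in C57BL/6J embryonic stem cells as a conditional allele. The study's methods do not name the step that activates it or say whether WT mice were littermates. Cells were freed from brain tissue with enzymes and collected on magnetic beads against CD11b, a surface protein that blood myeloid cells also carry.

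Complex I, or NADH:ubiquinone oxidoreductase, is the entry point of electrons from NADH into the respiratory chain of the inner mitochondrial membrane. Its N-module oxidises NADH, its Q-module passes the electrons over iron-sulfur clusters to ubiquinone, and its membrane arm pumps protons. Core subunits carry out the chemistry and are encoded partly in the nucleus and partly in mitochondrial DNA, supernumerary subunits surround and stabilise them, and assembly factors build the complex without staying in it. In microglia and other macrophages the balance between respiration and glycolysis shifts with activation.

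The libraries held between 23394686 and 28122336 reads in the listed genes, as inferred from the steps between the deposited values. The deposited values are normalized read counts, in which 1 read was worth between 0.912 and 1.09 units, so a value is close to a number of reads, and the mean over the 6 libraries was at least 100 for 45 of the 46 Nduf genes. Lactb itself stood at 1471, 1563 and 1393 in WT and 1458, 1524 and 1491 in ED, and a gene-level value cannot read the substituted base. The 10 microglia markers were abundant in every library, with a mean log2 level of 16.14 to 16.38 in WT and 16.13 to 16.28 in ED. Markers of other cells were present at lower levels. The 12 neuron markers lay between 8.12 and 8.18 in WT and between 7.53 and 7.91 in ED. Of the 12, 11 were lower in ED, against 51.4% of all genes, and 8 were at an unadjusted limma p under 0.05, against 1.82%. For 9 of the 12 all ED mice were below all WT mice, against 3.42% of all genes. The 8 endothelial markers reached 9.32 in WT2 and lay between 7.91 and 8.27 in the other 5 libraries. The 2 measured red cell markers were likewise highest in WT2, at 7.57 against 4.43 to 5.17 elsewhere. The 8 markers of monocytes and neutrophils ranged from 5.50 to 7.45 in WT and from 5.71 to 7.85 in ED, highest in ED3. No listed marker that was measured stood at 0 in all libraries of a genotype. In bulk RNA, fewer cells of a type and less RNA per cell cannot be told apart.

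The genes lie on 17 chromosomes, with 6 on chromosome 17 and 2, Ndufa1 and Ndufb11, on the X chromosome. Promoter windows from 250 bases before to 50 bases after the start of transcription were taken from RefSeq (GRCm38.p6) for the 40 Nduf genes that matched by symbol. They were searched on both strands for exact matches to motifs of 3 regulators of nuclear respiratory genes. The NRF1 motif GCGCATGCG stood in the window of 4 Nduf genes (10%), Ndufa11, Ndufa8, Ndufaf4 and Ndufaf5, and of 1.95% of all 27025 genes with a window. The YY1 motif AAGATGGCG stood in 6 (15%), Ndufa9, Ndufaf8, Ndufc1, Ndufs4, Ndufs6 and Ndufs7, and in 1.64% of all genes. The ETS motif CCGGAAGT, which the factor GABP binds, stood in 1 (2.5%), Ndufs3, and in 4.31% of all genes. At least 1 motif stood in 11 windows (27.5%) and in 7.48% of all. These are matches of letters, not bound sites. The 27025 genes outnumber the 15954 measured, so the shares over all genes include genes not measured in these cells. The share among measured genes alone was not tested. The 3 windows with the NRF1 motif before the RefSeq start are printed because they show the motif at different distances from it. They cover the 250 bases before the start, 5′ to 3′ on the gene's strand, at chr17:56717512-56717761 (plus strand) for Ndufa11, chr2:36049339-36049588 (minus strand) for Ndufa8 and chr4:24897833-24898082 (plus strand) for Ndufaf4. Capitals mark the NRF1 motif, which in Ndufa11 and Ndufaf4 overlaps its own match on the other strand. In Ndufa8 the motif lies on the other strand alone, so the printed strand reads CGCATGCGC. The GENCODE annotation puts the 5′ end of Ndufa8 at position 36049406, inside this window. By that annotation its motif lies within the gene.
Ndufa11: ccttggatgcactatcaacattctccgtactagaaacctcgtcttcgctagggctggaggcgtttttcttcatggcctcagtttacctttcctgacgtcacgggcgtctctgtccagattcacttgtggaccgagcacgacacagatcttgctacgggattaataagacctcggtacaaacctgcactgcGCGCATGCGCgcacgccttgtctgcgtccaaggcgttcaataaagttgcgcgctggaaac
Ndufa8: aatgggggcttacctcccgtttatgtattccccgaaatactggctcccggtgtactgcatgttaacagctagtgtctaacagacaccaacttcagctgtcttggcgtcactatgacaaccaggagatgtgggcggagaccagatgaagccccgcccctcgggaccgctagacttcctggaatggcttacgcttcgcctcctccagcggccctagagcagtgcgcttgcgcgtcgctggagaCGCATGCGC
Ndufaf4: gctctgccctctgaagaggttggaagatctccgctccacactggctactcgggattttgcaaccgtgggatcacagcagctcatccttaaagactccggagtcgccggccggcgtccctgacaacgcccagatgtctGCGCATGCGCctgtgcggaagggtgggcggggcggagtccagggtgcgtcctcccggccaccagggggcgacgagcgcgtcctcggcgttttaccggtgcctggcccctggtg

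Subunits were transcribed over a wide range, and assembly factors were near the low end of it. Per kilobase of the principal transcript, the mean level over the 6 libraries had a median of 920.0 normalized reads over the 36 subunits of complex I and a lowest value of 164. The 8 assembly factors lay between 91.3 and 496 per kilobase, with a median of 175. Among the highest were Ndufc2 with 1871, Ndufs7 with 1813 and Ndufb10 with 1771 per kilobase. The lowest subunits were Ndufc1 with 164, Ndufb4 with 256 and Ndufs4 with 265, and the lowest assembly factors were Ndufaf4 with 91.3 and Ndufaf5 with 94.2. Levels per kilobase depend on the transcript model: with all exons of a gene merged, Ndufb2 went from 703 to 56.8. Ndufa4 and Ndufa4l2 carry complex I names but are counted apart, since Ndufa4 was reassigned to complex IV and Ndufa4l2 is its hypoxia-induced relative. Ndufa4 stood at 1601 per kilobase and Ndufa4l2, the lowest of all 46, at 21.6. In the plot of levels by role, the WT and ED points overlap for each gene drawn except Ndufaf7.

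**Figure D1:**
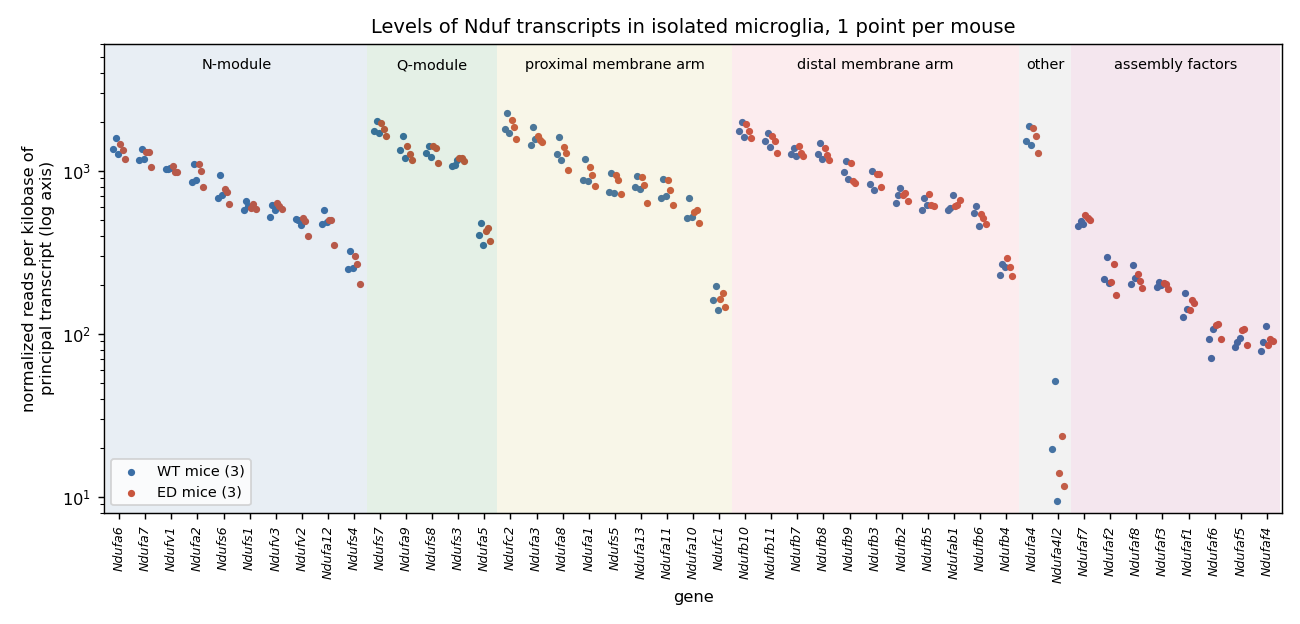
Normalized reads per kilobase of the principal transcript (log axis) for 45 Nduf genes, grouped by place in complex I, with 1 point per mouse (blue WT, red ED). The assembly factors lie between 91.3 and 496 and most subunits above them, and Ndufa4l2 is lowest at 21.6.

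The main comparison, ED against WT, gave no Nduf transcript past the threshold. With limma on log2(value + 1), 0 of the 46 genes passed an adjusted p of 0.05, as did 0.0% of all 15954 genes, and 0 of the 46 were under an unadjusted p of 0.05, against 290 genes or 1.82% of all. The smallest unadjusted limma p of an Nduf gene was 0.159, for Ndufaf7, and every adjusted p was 1.00. The median log2 fold change, ED minus WT (log2FC), was -0.03 over the 38 subunit names and 0.02 over the 8 assembly factors, beside -0.00 over all genes. For 35 of 46 the log2FC was within 0.1 of 0. All 46 of the 95% intervals included 0. Over the 36 complex I subunits these intervals ran at most from -0.54 to 0.39, and the distance from estimate to bound was 0.17 for Ndufv1, the narrowest, with a median of 0.29 over the 46 genes. These intervals are per gene and not adjusted for the number of genes. Groups did not overlap for 1 gene with ED higher (2.32% of all genes) and for 0 with ED lower (3.42% of all genes).

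**Figure D2:**
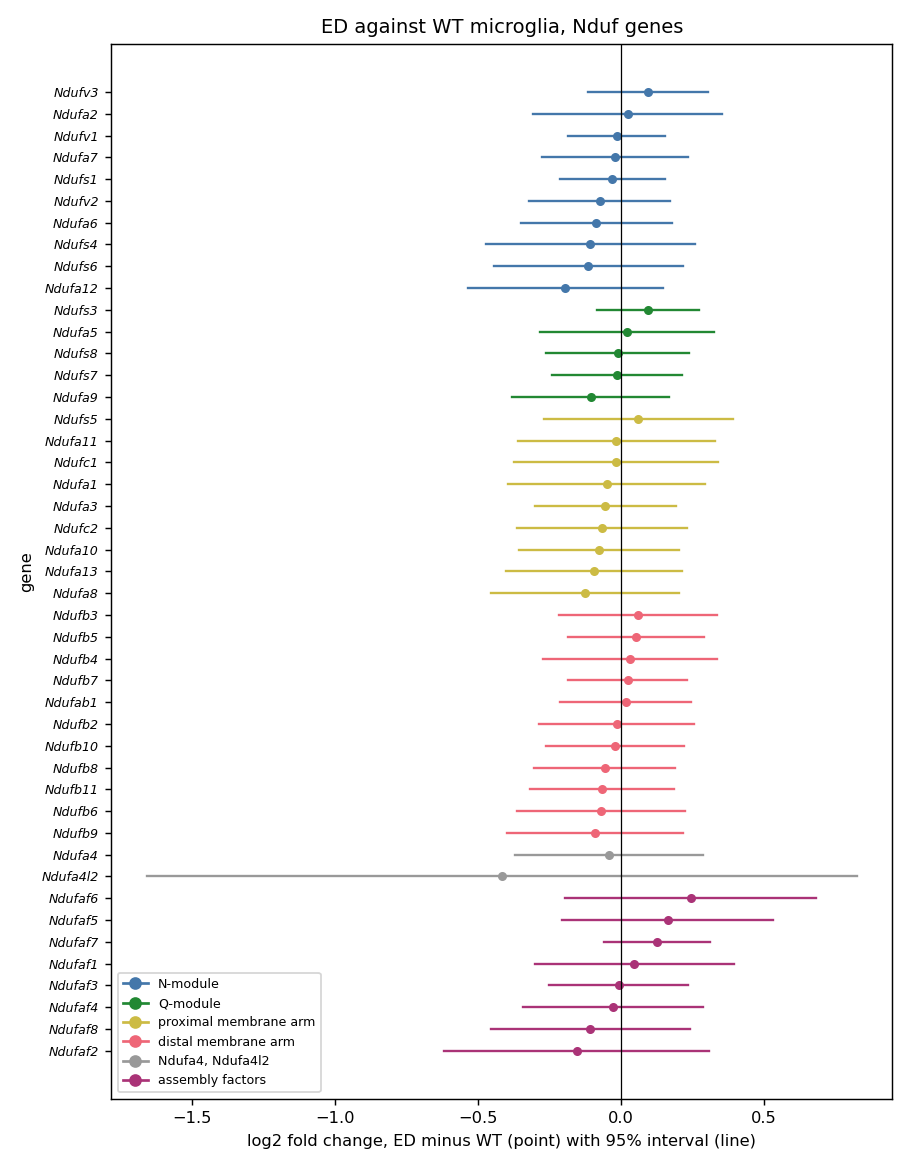
Log2 fold change of 45 Nduf genes, ED minus WT (point), with its 95% interval from limma (line), coloured by place in complex I. Each of these intervals includes 0, and the widest, that of Ndufa4l2, runs from -1.66 to 0.83.

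The nuclear core subunits varied least between mice of the groups described here. Ndufv1 encodes the subunit that binds NADH and the flavin FMN. It stood at 1699, 1706 and 1717 in WT1, WT2 and WT3 and at 1788, 1644 and 1642 in ED1, ED2 and ED3 (log2FC -0.01, SE 0.08). The WT mice lay close together inside the range of the ED mice. Ndufv2, its iron-sulfur partner in the N-module, stood at 860, 846 and 792 in WT and 877, 830 and 678 in ED (log2FC -0.07, SE 0.11). ED3 was the lowest library and ED1 the highest, so the genotypes overlapped. Ndufs1, the large iron-sulfur subunit of the N-module, stood at 1482, 1687 and 1571 in WT and 1525, 1612 and 1500 in ED (log2FC -0.03, SE 0.08). Its ED values lay between the lowest and the highest WT value.

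In the Q-module, the core subunit Ndufs7, which holds the last iron-sulfur cluster before ubiquinone, stood at 1327, 1528 and 1286 in WT and 1495, 1373 and 1234 in ED (log2FC -0.01, SE 0.10). Ndufs8, another iron-sulfur subunit, stood at 1263, 1402 and 1202 in WT and 1396, 1359 and 1095 in ED (log2FC -0.01, SE 0.11). In both, WT2 was highest and ED3 lowest. Ndufs3 was the core subunit whose estimate was above 0, at 1114, 1138 and 1225 in WT and 1250, 1259 and 1200 in ED (log2FC 0.09, SE 0.08). ED1 and ED2 were above all WT mice, and ED3 was below WT3. A processed pseudogene shares 98.6% of its bases with Ndufs3 over 792 bases, so reads from both may be split between them. The median spread between mice of a genotype was 0.08 (SD, log2 scale) over the 7 core subunits, 0.16 over all subunit names and 0.17 over all genes.

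In the supernumerary N-module, the lowest estimate was that of Ndufa12 (ENSMUSG00000020022, plus strand of chromosome 10 from 94198720 to 94221443 in GRCm38), which sits where the N-module and the Q-module join. It stood at 522, 638 and 537 in WT and 554, 553 and 389 in ED (log2FC -0.19, SE 0.15). ED3 alone was below the WT mice, and the log2 fold change without ED3 was -0.03. Ndufs6, a zinc-binding subunit, stood at 386, 538 and 406 in WT and 441, 424 and 356 in ED (log2FC -0.11, SE 0.15). Here WT2 stood above the other 5 libraries and ED3 below them. Ndufv3 had the highest estimate of all subunits, at 821, 974 and 910 in WT and 1008, 959 and 918 in ED (log2FC 0.10, SE 0.09). WT1 was below all ED mice and the other WT mice were within or just below their range, and without WT1 the log2FC was 0.03. The other 4 N-module members were Ndufa2, Ndufa6, Ndufa7 and Ndufs4, the last known from mice that lack it as a model of Leigh syndrome, a mitochondrial brain disease. Ndufs4 stood at 466 ± 69.0 in WT and 435 ± 85.3 (SD, n = 3) in ED. Ndufa6, which anchors an acyl carrier protein, had 831 ± 99.9 in WT and 783 ± 84.5 in ED, and Ndufa7 had 653 ± 55.9 in WT and 646 ± 73.6 in ED. Ndufa2, a subunit with a thioredoxin-like fold, was at 542 ± 76.1 in WT and 553 ± 92.1 in ED. Each of these 4 differences was smaller than the SD of the WT mice. Of the 10 N-module genes, 8 were lower in ED and 2 higher, and their median log2FC was -0.05.

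The Q-module also holds Ndufa9, which binds a nucleotide cofactor, and Ndufa5. Ndufa9 stood at 1936, 2352 and 1724 in WT and 2045, 1842 and 1675 in ED (log2FC -0.10, SE 0.12). WT2 was the highest library and ED3 the lowest, and WT3 was next to ED3. Ndufa5 was at 359 ± 54.0 in WT and 363 ± 32.2 (SD, n = 3) in ED. In the Q-module as a whole 2 of the 6 genes were higher in ED and 4 were lower (median log2FC -0.01).

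The 9 genes of the proximal membrane arm had the largest median spread between mice of a genotype among the places in the complex, 0.22 (SD, log2 scale). All 9 were highest in WT2 and 7 were lowest in ED3, and 8 were lower in ED, and their median log2FC was -0.05. Ndufa8, a subunit on the side of the intermembrane space whose promoter window is printed above, stood at 1096, 1380 and 1004 in WT and 1208, 1108 and 874 in ED (log2FC -0.13, SE 0.15). WT2 was above and ED3 below all other libraries. Ndufa11, another gene with the NRF1 motif, was at 413 ± 61.1 in WT and 410.0 ± 70.0 (SD, n = 3) in ED. The rest were Ndufa1, Ndufa3, Ndufa10, Ndufa13, Ndufc1, Ndufc2 and Ndufs5, with log2 fold changes between -0.09 for Ndufa13, which is also known as the cell death regulator GRIM-19, and 0.06 for Ndufs5. Ndufc2, the most abundant of them, had 1308 ± 199.95 in WT and 1248 ± 172 in ED. Its partner Ndufc1, the least abundant, had 206 ± 35.1 in WT and 203 ± 20.5 in ED. Ndufa13 had 1044 ± 111 in WT and 985 ± 175 in ED. Ndufa10, which resembles a nucleoside kinase, had 1151 ± 191 in WT and 1085 ± 101 in ED. The small subunit Ndufa1 had 409 ± 75.5 in WT and 394 ± 53.1 in ED, and Ndufa3, another small one, had 837 ± 114 in WT and 802 ± 38.7 in ED. Ndufs5, which faces the intermembrane space, was at 429 ± 72.0 in WT and 447 ± 59.3 in ED. For each of these 7 genes the difference between genotypes was smaller than the SD of the WT mice.

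The distal membrane arm was split, with 6 of its 11 measured genes lower and 5 higher and a median of -0.01, and Ndufb1 was not analysed here. Ndufb5 stood at 621, 739 and 662 in WT and 774, 665 and 659 in ED (log2FC 0.05, SE 0.11). ED1 was highest and WT1 lowest. Ndufb3, a small membrane subunit, stood at 638, 759 and 585 in WT and 727, 727 and 606 in ED (log2FC 0.06, SE 0.12). The ED mice lay between WT3 and WT2. Ndufab1 encodes the mitochondrial acyl carrier protein, which also serves fatty acid synthesis and iron-sulfur cluster assembly. It stood at 820, 832 and 1004 in WT and 859, 877 and 941 in ED (log2FC 0.02, SE 0.10), with WT3 rather than WT2 highest and ED3 next. The other 8 were Ndufb2, Ndufb4, Ndufb6, Ndufb7, Ndufb8, Ndufb9, Ndufb10 and Ndufb11, with log2 fold changes between -0.09 for Ndufb9 and 0.03 for Ndufb4. Ndufb10, which faces the intermembrane space, had 1305 ± 140.4 in WT and 1287 ± 129.6 in ED, and Ndufb7, on the same side, had 806 ± 48.4 in WT and 819 ± 59.3 in ED. Ndufb11, on the X chromosome, had 1407 ± 138 in WT and 1346 ± 164 in ED, and Ndufb8 had 894 ± 102 in WT and 858 ± 77.1 in ED. Ndufb9, which like Ndufa6 binds an acyl carrier protein, was at 708 ± 92.1 in WT and 666 ± 108 in ED. No difference among these 5 reached the SD of the WT mice. Ndufb6 had 354 ± 50.04 in WT and 336 ± 23.0 in ED. Ndufb2 had 322 ± 33.8 in WT and 318 ± 18.7 in ED, and Ndufb4 had 245 ± 19.0 in WT and 251 ± 31.7 in ED, again with differences below that SD.

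Outside complex I itself, Ndufa4 stood at 927, 1156 and 881 in WT and 1111, 1002 and 780 in ED (log2FC -0.04, SE 0.15), with ED3 lowest and WT2 highest. Ndufa4l2 (ENSMUSG00000040280, plus strand of chromosome 10 from 127514967 to 127517154) stood at 18.3, 48.0 and 8.76 in WT and 13.1, 22.0 and 10.9 in ED. WT2 was above every other library and WT3 was the lowest, so the fold change (log2 -0.42, SE 0.55) had by far the widest interval, and it was 0.20 without WT2. WT2 was also the library with the most endothelial marker RNA, and the part of that RNA in the Ndufa4l2 level was not tested.

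The assembly factors were split, with 4 of the 8 lower and 4 higher in ED. Ndufaf7 (ENSMUSG00000024082, plus strand of chromosome 17 from 78937136 to 78948052), a protein methyltransferase of early complex I assembly, was the gene whose groups did not overlap. It stood at 800, 856 and 831 in WT and 943, 902 and 871 in ED. The ED mean was 9.13% higher (log2FC 0.13, SE 0.08, limma adjusted p = 1.00). The lowest ED mouse, ED3, was just above the highest WT mouse, WT2, and the estimate stayed between 0.10 and 0.15 without each library in turn. Since the groups did not overlap, its sign could not turn in these omissions. Ndufaf6, which is needed for the Q-module, had the highest estimate at a level near 100 reads. It stood at 101, 77.3 and 116 in WT and 122, 124 and 100.3 in ED (log2FC 0.24, SE 0.20). WT2 was the lowest library, the opposite of its place for most subunits, and ED3 was below WT1 and WT3. Without WT2 the log2FC was 0.08.

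Ndufaf2, a late assembly factor related in sequence to Ndufa12, stood at 147, 201 and 139 in WT and 141, 181 and 117 in ED (log2FC -0.15, SE 0.21). WT2 and ED2 were above the other 4 libraries. An uncharacterised noncoding RNA gene on the opposite strand covers 65.6% of the exon bases of Ndufaf2, and its reads cannot be told apart from those of Ndufaf2 where counting ignored strand. Ndufaf8, the partner of Ndufaf5, stood at 158, 207 and 172 in WT and 183, 165 and 149 in ED (log2FC -0.11, SE 0.15), highest in WT2 and lowest in ED3. Ndufaf5, which hydroxylates an arginine of NDUFS7, was at 103 ± 6.35 in WT and 116 ± 14.0 (SD, n = 3) in ED (log2FC 0.16, SE 0.16). This difference was larger than the SD of the WT mice, but ED3 was below WT2 and WT3. Ndufaf3 and Ndufaf4, which act together on the Q-module, were at 297 ± 10.1 and 336 ± 60.7 in WT and 296 ± 14.9 and 327 ± 13.1 in ED. Ndufaf1, of the membrane arm assembly complex, was at 215 ± 38.9 and 221 ± 16.8 (SD, n = 3).

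Subunit transcripts varied together between mice of the same genotype. Of the 38 subunit names, 33 were higher in WT2 than in WT3, by a median of 1.24-fold, and 37 were higher in ED1 than in ED3, by 1.22-fold. Between WT2 and ED3 the median was 1.28-fold with 36 of 38 higher in WT2, and 1.00-fold over all genes. For the 7 core subunits it was 1.12-fold and for the 8 assembly factors 1.07-fold. Of the 46 Nduf genes, 31 were highest in WT2, against 26.2% of all genes. ED3 was the lowest library for 28 of 46, against 20.1% of all genes, and 23 were both, against 9.9%. No test stands behind these shares, since the genes of a library share its RNA.

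**Figure D3:**
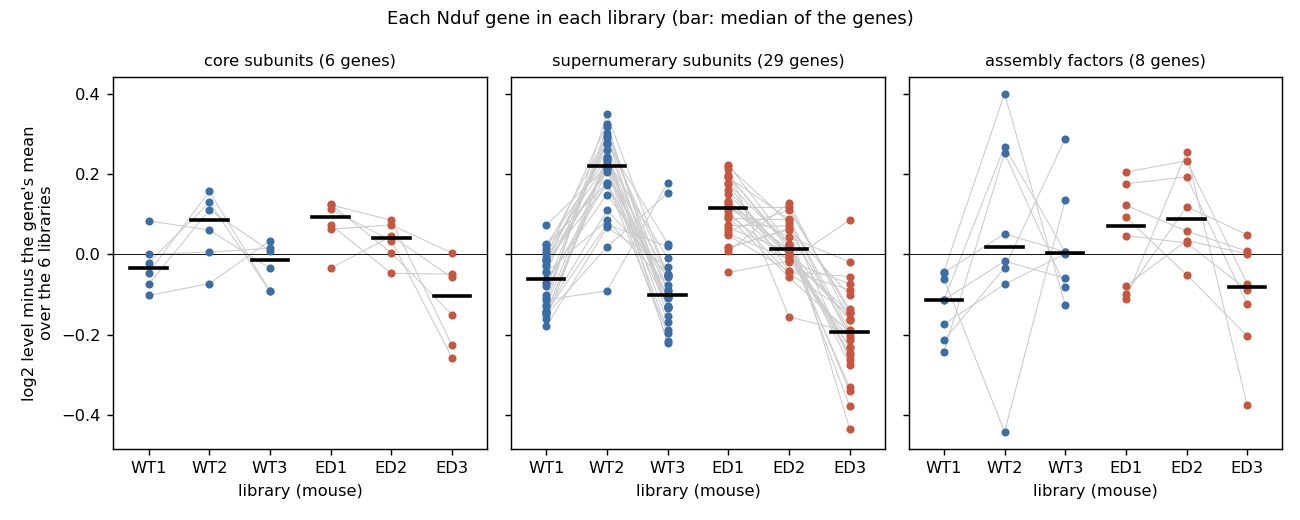
Log2 level of complex I genes in each library minus its mean over the 6 libraries, with grey lines joining the libraries of a genotype and black bars at the median (blue WT, red ED). Among the 29 supernumerary subunits WT2 is the highest library and ED3 the lowest, and the 6 core subunits drawn and the 8 assembly factors show a smaller spread of medians.

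The direction of the genotype difference followed those libraries. In all, 32 of 46 Nduf genes and 28 of 38 subunit names were lower in ED, against 51.4% of all genes. Without WT2, 7 of 38 subunit names were lower and the median log2 fold change was 0.05. Without ED3, 10 of 38 were lower and the median was again 0.05. Leaving out WT1, WT3, ED1 or ED2 gave 33, 31, 34 and 29 lower, with medians of -0.06, -0.08, -0.09 and -0.05. For the assembly factors the same 6 omissions gave between 1 and 5 of 8 lower and medians from -0.05 to 0.06. The sign of the subunit median thus rested on single mice.

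Transcript length was compared with this pattern as well. The 26 Nduf genes with a principal transcript under 1000 bases had a median deviation from their own mean of 0.22 in WT2 and -0.21 in ED3 on the log2 scale, against 0.06 and -0.08 for the 20 longer genes. The longer genes hold 5 of the 7 core subunits and 6 of the 8 assembly factors, so length and role overlap. Within the supernumerary subunits the deviations in WT2 and ED3 were 0.22 and -0.19 for the 20 shorter genes and 0.26 and -0.19 for the 9 longer genes. The part of the marker lists that were also high in WT2 was not tested.

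The other nuclear genes of the respiratory chain were on average also highest in WT2 and lowest in ED3. The mean deviation of the 36 complex I subunits was 0.18 in WT2 and -0.18 in ED3. Among the 15 nuclear ATP synthase genes, all were highest in WT2 and lowest in ED3 and all 15 were lower in ED, with a median of -0.07. Atp5k, a small membrane subunit, was alone at an unadjusted p under 0.05, at 440.0, 457 and 425 in WT and 370.2, 403 and 346 in ED (log2FC -0.24, SE 0.10, limma adjusted p = 1.00), with no overlap between genotypes. Of the complex II, III and IV genes, 4 of 4, 7 of 9 and 9 of 10 were lower, with medians of -0.05, -0.05 and -0.06, and none passed the test. The 88 cytosolic ribosomal protein genes, which are no part of the respiratory chain, also had these ends, with a mean deviation of 0.21 in WT2 and -0.28 in ED3, and 84 of 88 were lower with a median of -0.08. The microglia markers were 0.14 above their mean in WT2 and 0.11 below it in ED3 on the same scale.

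**Figure D4:**
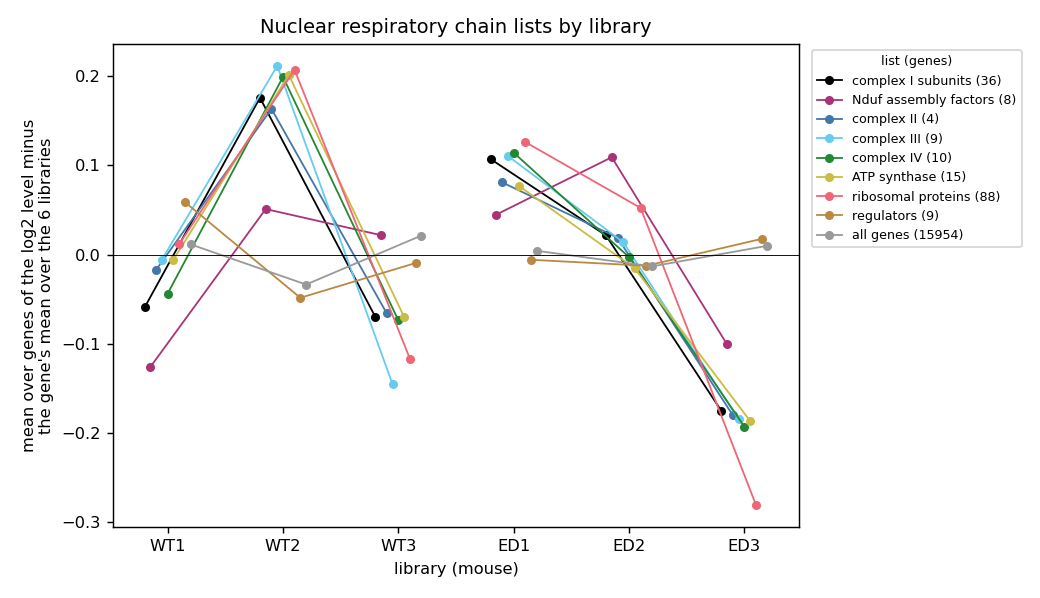
Mean deviation of each gene list from its own level over the 6 libraries (log2 scale), 1 line per list, with the number of genes in brackets. Complexes I to IV, ATP synthase and the ribosomal proteins are highest in WT2 and lowest in ED3, and the 9 regulators and all 15954 genes stay close to 0.

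Complex I genes outside the Nduf names were on average highest in WT2 or lowest in ED3 but not both. The 7 mitochondrially encoded subunits had 5 genes higher and 2 lower in ED. Their median log2FC was 0.05, with estimates from -0.39 to 0.11, and 0 of 7 were highest in WT2 and 4 of 7 lowest in ED3. mt-Nd6, which is read from the other strand of mitochondrial DNA than the rest, had 9161, 7657 and 8118 in WT and 10349, 9078 and 7636 in ED (log2FC 0.11, SE 0.12). ED1 was highest and ED3 lowest. Strand use in counting was not given, so RNA of the opposite strand may be part of these values. Of 12 assembly factors with other names 11 were measured, 8 of them higher and 3 lower, with a median of 0.07, and 6 of the 11 were highest in WT2 and 2 lowest in ED3. Their smallest p belonged to Tmem186, a membrane arm assembly factor, with 554, 626 and 659 in WT and 599, 684 and 710.1 in ED (log2FC 0.12, SE 0.11). The genotypes overlapped. Among 9 regulators of respiratory gene transcription 6 were lower and 3 higher, with a median of -0.01 and estimates from -0.31 to 0.32. The coactivator gene Ppargc1a stood at 44.1, 34.3 and 36.1 in WT and 32.8, 27.0 and 31.9 in ED (log2FC -0.31, SE 0.24), with all ED mice below all WT mice at a level of few reads, and its limma adjusted p was 1.00. Esrra, the gene of a nuclear receptor that works with it, was separated the other way, at 2017, 1990 and 1976 in WT and 2078, 2036 and 2033 in ED (log2FC 0.04, SE 0.07, limma adjusted p = 1.00). It is named because its groups did not overlap, after its values were seen, and its estimate was smaller than its SE. Of the 9 regulators, 1 had groups without overlap with ED lower and 1 with ED higher, against 3.42% and 2.32% of all genes.

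Some of these values may hold reads of other genes. For 8 Nduf genes a processed pseudogene shares at least 95% of the bases over at least 150 bases. They are Ndufa12, Ndufab1, Ndufb3, Ndufb4, Ndufb11, Ndufs3, Ndufs5 and Ndufs6, and the copy of Ndufs5 is itself a row of the table. Apart from Ndufaf2, genes on the opposite strand overlap 39.0% of the exon bases of Ndufb6, 30.0% of those of Ndufa13, 12.9% of those of Ndufb11 and 12.3% of those of Ndufb5. A gene on the same strand shares 19.5% of the exon bases of Ndufb9, which counting by strand would not separate. Levels of these genes are uncertain to that extent.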

How the data were processed

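RNA of isolated microglia was measured in 6 libraries, whose titles give the genotype. Trimmomatic 0.36, Subread 1.5.2 with its counter featureCounts, STAR 2.5.2b, DESeq2 and the build GRCm38 appear in the submitters' processing notes. The study's methods name other tools and a human genome build, with nothing separate for the mouse, and strand use in counting was not given in the sources used here. The table deposited by the authors gives a normalized signal per gene and library. These are reads scaled by a size factor for each library, and they were whole multiples of 1 step for 100% of values (tolerance 0.01 of a step). Its columns of log2 fold change, p and adjusted p hold the authors' own comparison and were not used. The lowest mean in the table was 9.87.

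ED was compared with WT on log2(value + 1), which understates changes of low genes, with limma 3.58.1 in R 4.3.3 (genotype only, mean-variance trend) and Benjamini-Hochberg adjustment at 0.05 over all 15954 genes. The code was run on simulated data with independent genes and changes larger than any Nduf estimate here. That run cannot show whether changes of the size seen here would be found. Levels per kilobase used principal transcripts of GENCODE M21. No p-value was computed for a list. Members and lists were chosen with earlier results of these data known. Named members are the 7 core subunits, the 4 subunits and 2 assembly factors with the smallest p in each direction, the highest and lowest members, and Ndufa4, Ndufa4l2 and Ndufab1. A core subunit that this rule takes is not reported here. Of other lists at most the 2 genes with the smallest p are named, and Esrra was named because its groups did not overlap. The labels call the samples separate mice, and sex is not given. Alternatives were other pseudocounts, a filter on low values, other scalings, no trend, a replicate block and leaving out each library.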

Additional observations from a re-analysis of the deposited data

How the results depend on the processing

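With limma, 0 of all genes and 0 of the 46 Nduf genes passed in any of the 13 alternatives fitted, while unadjusted p under 0.05 was reached by 129 to 912 genes, the fewest among the 10984 genes with a mean of at least 100 and the most without WT3, where the smallest adjusted p was 0.119 over all genes and 0.860 over the Nduf genes. The replicate block, which treats mouse numbers as pairs, called 0 genes, with 403 at an unadjusted p under 0.05. Same-numbered mice had correlated deviations of r = -0.10, 0.05 and 0.27 across all genes, so the numbers were not taken as pairs, while across the 46 Nduf genes these were 0.21, 0.66 and 0.56, and there each mouse correlated best with its own number. Genes are not independent replicates, and the labels tie no WT mouse to an ED mouse. The planned refits with 2 count models on whole reads were not run. Read numbers were only inferred from the normalized values, and no ED gene stood at 1 read. The 7 settings other than leaving out a library turned the sign of 0 of 20 named Nduf genes. Leaving out 1 library turned it for 15, mostly without WT2 or ED3, and kept it for Ndufa12 (-0.28 to -0.025), Ndufaf6 (0.084 to 0.37), Ndufaf7 (0.096 to 0.15), Ndufs3 (0.066 to 0.13) and Ndufv3 (0.029 to 0.15). The genes that kept their sign are those with the smallest unadjusted limma p of the 46. The naming rule used that p, so a kept sign partly restates the choice. For Ndufaf7, whose groups did not overlap, no omission could turn the sign. The cause of the turned signs was not tested.

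Without each library in turn, the median log2 fold change ran from -0.09 to 0.05 over the subunits and from -0.05 to 0.06 over the assembly factors. For the core subunits it ran from -0.076 to 0.018 for Ndufs1, -0.080 to 0.062 for Ndufs7, -0.076 to 0.10 for Ndufs8, -0.055 to 0.0063 for Ndufv1 and -0.15 to 0.037 for Ndufv2. For other subunits it ran from -0.22 to 0.0094 for Ndufa8, -0.21 to 0.017 for Ndufa9, -0.21 to 0.032 for Ndufs6, -0.024 to 0.16 for Ndufb3, -0.022 to 0.12 for Ndufb5 and -0.036 to 0.11 for Ndufab1. For Ndufa4 it ran from -0.15 to 0.10, for Ndufa4l2 from -0.97 to 0.20, for Ndufaf2 from -0.32 to 0.0066 and for Ndufaf8 from -0.19 to 0.00064.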
